A study of Mus musculus with 9 samples.

Results

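The core circadian clock of the cell is represented here by 10 genes: the activators Arntl and Clock, the repressors Per1, Per2, Per3, Cry1 and Cry2, the nuclear receptors Nr1d1 and Nr1d2, and the output factor Dbp. They were chosen by gene symbol, not by their values, though earlier results of these data were known. Each of the 10 was found once among the 54532 genes listed in each of 2 deposited tables, and all 10 reached the mean of 1 FPKM that was needed for testing in every comparison. FPKM scales fragments to gene length and library size, so levels can be set side by side between genes of a library. Comparisons between samples also depend on the scaling chosen, and values under other scalings are given where they change a result.

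RNA was sequenced from the hippocampus of 9 mice, which the labels describe as male C57BL/6 mice aged 6 to 8 weeks at purchase and kept under equal hours of light and dark, while the study's methods describe females. The 3 Con mice ate a standard diet. The 3 HMD mice ate a diet high in methionine, a precursor of homocysteine, for 8 weeks. The 3 Bet+HMD mice were given the same diet for 8 weeks and then 2.5% (w/v) betaine, a methyl donor that returns homocysteine to methionine, in their drinking water for 2 weeks. All mice were wild type as far as the labels say. Strain is labelled for the Bet+HMD samples singly, and replicates 2 and 3 of that group read C57BL/7 and C57BL/8. Whether the methionine diet went on during the betaine weeks is not clear from the labels. The hour of day at which tissue was taken is not given in the sources used here, so any difference in that hour between groups cannot be told apart from diet or betaine.

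In the clock loop, the proteins of Arntl (BMAL1) and Clock bind E-boxes and switch on the Per and Cry genes, whose proteins come back to the nucleus and silence the pair. Nr1d1 and Nr1d2 encode REV-ERB receptors, which are also driven by E-boxes and repress Arntl through ROR elements, while DBP acts on D-boxes. The hippocampus carries such a clock of its own, set by the suprachiasmatic nucleus and by hormones such as corticosterone, and the Per genes there are known to take part in memory.

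The HMD and Con libraries were set against each other in the earlier table, which held 16449388 to 18566712 reads assigned to genes per library. Bet+HMD was compared in the later table, with 16031464 to 18291952 reads. The Bet+HMD libraries occurred only in the later table and stood apart from the others: 1.40 to 1.45% of their reads fell in lincRNA genes, against 0.476 to 0.560% in the Con and HMD libraries of that table, and 25315 to 25663 genes had a read in them, against 20816 to 23272. Betaine and whatever else set these libraries apart cannot be told apart. The summed FPKM of 4 Y-linked genes was 25.6 to 36.9 in the 9 libraries of the later table and Xist was at most 0.0449, as in male tissue. Nothing in the labels says whether the samples of a group came from separate litters or extractions, so p-values measure only the spread between these samples.

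Promoter windows of the members show which of the sequences read by the clock proteins lie near the annotated starts. RefSeq windows on GRCm38.p6, from 250 bases before to 50 bases after a start, were at hand for 9 of the 10 members (13 windows, and none for Per2). Both strands were searched for the E-box CACGTG, the D-box TTATGTAA or TTACGTAA, the ROR element, the cAMP element TGACGTCA and the glucocorticoid element. The 4 windows with a match are printed 5′ to 3′ along the gene's own strand, with the match in capitals.
Per1 (chr11:69098699-69098998, plus strand, E-box): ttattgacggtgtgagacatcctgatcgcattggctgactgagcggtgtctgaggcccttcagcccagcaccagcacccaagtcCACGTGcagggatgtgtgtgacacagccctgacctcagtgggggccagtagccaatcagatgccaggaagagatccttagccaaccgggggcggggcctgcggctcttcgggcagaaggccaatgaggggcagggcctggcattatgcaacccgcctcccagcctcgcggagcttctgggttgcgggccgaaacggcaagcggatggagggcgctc
Cry1 (chr10:85185005-85185304, minus strand, E-box): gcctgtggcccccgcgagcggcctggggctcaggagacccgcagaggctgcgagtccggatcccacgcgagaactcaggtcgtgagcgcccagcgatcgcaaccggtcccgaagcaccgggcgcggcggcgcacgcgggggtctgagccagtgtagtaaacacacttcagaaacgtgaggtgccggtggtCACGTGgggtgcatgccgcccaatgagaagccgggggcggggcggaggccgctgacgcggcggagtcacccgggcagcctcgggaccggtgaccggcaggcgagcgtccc
Per3 (chr4:151044616-151044915, minus strand, 2 D-boxes): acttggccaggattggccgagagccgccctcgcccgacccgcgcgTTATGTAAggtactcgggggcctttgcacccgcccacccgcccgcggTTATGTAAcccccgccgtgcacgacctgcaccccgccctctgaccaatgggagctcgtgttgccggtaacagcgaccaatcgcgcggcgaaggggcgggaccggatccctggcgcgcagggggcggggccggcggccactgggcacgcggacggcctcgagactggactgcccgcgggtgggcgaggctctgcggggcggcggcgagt
Arntl (chr7:113207261-113207560, plus strand, ROR element): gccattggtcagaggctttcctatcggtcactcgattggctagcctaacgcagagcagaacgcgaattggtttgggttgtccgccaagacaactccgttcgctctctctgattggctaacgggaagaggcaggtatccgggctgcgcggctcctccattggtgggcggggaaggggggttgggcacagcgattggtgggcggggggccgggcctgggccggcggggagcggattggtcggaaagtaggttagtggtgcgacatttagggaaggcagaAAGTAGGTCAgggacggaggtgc

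The E-box lay 166 to 161 bases before the start in the Per1 window and 60 to 55 bases before it in the Cry1 window. The Per3 window held the D-box 205 to 198 and 158 to 151 bases before the start. In the Arntl window the ROR element lay 28 to 37 bases after the start. Over all 32851 windows, an E-box was found in 7.15%, a D-box in 1.06%, a ROR element in 0.219%, a cAMP element in 1.79% and a glucocorticoid element in 0.00913%. Of the 13 member windows, 2 held an E-box, 1 a D-box and 1 a ROR element, while the cAMP and glucocorticoid elements were in 0. A match of letters is a description of the window, not evidence of binding.

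**Figure D1:**
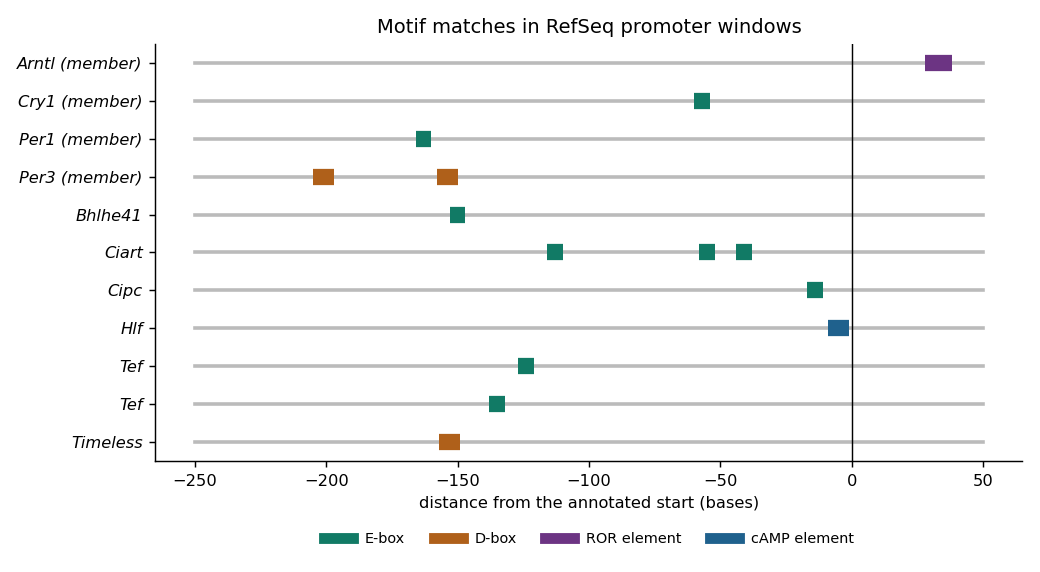
Each grey line is 1 RefSeq promoter window, with the distance from the annotated start in bases on the x axis, and each coloured block is a match to a motif. The 4 member windows at the top hold the Arntl, Cry1, Per1 and Per3 matches, and the lines under them are windows of further clock genes that held a match.

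The methionine diet was compared with the standard diet to see whether it altered the hippocampal transcriptome. No member passed an adjusted p under 0.05 (limma, 0 of 10), as was the case for 0 of all 12989 genes tested (0%). At an unadjusted p under 0.05 there were 2 members, Cry1 and Arntl, where 4.56% of all genes stood. The groups did not overlap for 3 members, Cry1 and Per3 with higher HMD values and Arntl with lower ones, against 9.37% of all genes. Limma voom on the recovered reads also called 0 of the 10.

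Cry1, a repressor that closes the loop, had 3.51, 3.94 and 4.34 FPKM in Con replicates 1, 2 and 3 and 6.53, 6.72 and 5.12 FPKM in the HMD replicates. Every HMD library was above every Con library. The HMD mean was 1.56 times the Con mean, and the log2 difference was 0.53 ± 0.13 (SE, n = 3 per group). A log2 difference here is the first group minus the second on the log2(FPKM + 1) scale, which understates changes of low genes. Its limma p was 0.0044 and became 0.860 after adjustment over all genes. The log2 difference stayed between 0.47 and 0.63 when each library was left out in turn. Cry2, its paralogue, overlapped between the groups: Con libraries ran from 16.5 to 20.0 FPKM and HMD libraries from 17.7 to 19.9 FPKM. Its log2 difference was 0.06 (95% interval -0.20 to 0.33).

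Arntl, the activator without which the loop stops, lay at 3.16, 3.66 and 3.71 FPKM in Con and at 2.67, 2.66 and 2.90 FPKM in HMD. All HMD libraries were under all Con libraries, with a log2 difference of -0.27 ± 0.11 (SE), a ratio of means of 0.781 and a limma p of 0.042 (adjusted 0.980). These values rest on 323 to 492 reads per library. Its partner Clock ran from 7.95 to 12.0 FPKM in Con and from 8.57 to 11.6 FPKM in HMD, and the groups overlapped, with a log2 difference of 0.06 (95% interval -0.34 to 0.45).

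Since Cry1 stood higher and Arntl lower, their ratio within a library, which does not depend on the scaling of that library, separated the groups further. Cry1 to Arntl was 1.11, 1.07 and 1.17 in Con and 2.45, 2.52 and 1.76 in HMD. This ratio was chosen after the values of both genes were seen and is given with no test.

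Of the Per genes, Per3 was 3.28, 3.18 and 2.58 FPKM in Con and 3.38, 4.12 and 3.52 FPKM in HMD. The gap between the groups was narrow, and the log2 difference of 0.22 ± 0.12 (SE) had a limma adjusted p of 0.980. Per2 overlapped between groups, at 4.39 to 5.29 FPKM in Con and 5.04 to 6.07 FPKM in HMD, with a log2 difference of 0.14 (95% interval -0.13 to 0.41). Per1, the member that answers fastest to hormones and neuronal activity, also overlapped, at 11.2 to 17.3 FPKM in Con and 12.2 to 14.7 FPKM in HMD. Its log2 difference was -0.04 (95% interval -0.41 to 0.34), and it took either sign, from -0.18 to 0.12, when single libraries were left out.

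Nr1d1 and Nr1d2, the REV-ERB receptors, were the most abundant members in both groups. Nr1d1 had 23.1 to 32.3 FPKM in Con and 20.8 to 29.6 FPKM in HMD, and Nr1d2 had 19.5 to 30.1 FPKM in Con and 26.6 to 28.4 FPKM in HMD. Their log2 differences were -0.03 (95% interval -0.45 to 0.39) and 0.20 (95% interval -0.17 to 0.57). Dbp, an output gene whose transcript has one of the widest daily swings of the clock, was 14.5, 7.57 and 9.26 FPKM in Con and 11.8, 7.54 and 15.6 FPKM in HMD. The spread within each group was larger than the difference between them, and the log2 difference was 0.14 (95% interval -0.54 to 0.81).

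**Figure D2:**
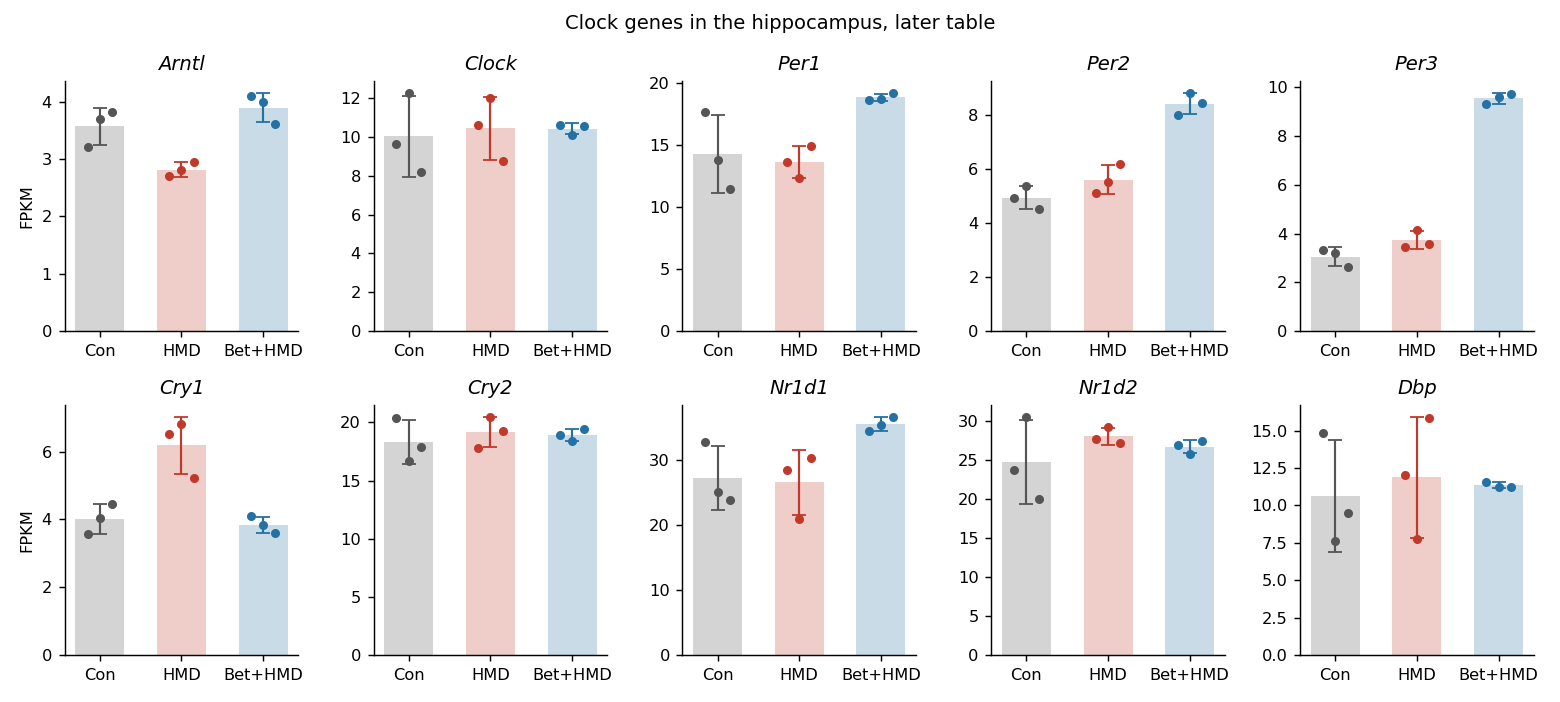
FPKM of the 10 clock genes in the later table, with 1 point per library, bars at the group mean and error bars of 1 SD (n = 3). Cry1 is highest and Arntl lowest in the HMD libraries, and the Bet+HMD points of Per1, Per2, Per3 and Nr1d1 lie above all Con and HMD points.

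The betaine mice were next set against the mice on the methionine diet alone. In Bet+HMD against HMD, 6 of the 10 members passed the threshold (limma, adjusted p under 0.05), while 48.3% of all 13672 genes did. Of the 6, 5 were higher (background 22.8%) and 1 was lower (background 25.5%). The same 6 members did not overlap between the groups, against 60.1% of all genes. With so many genes called across the whole table, the number of members called was near that of genes at large. The split of all calls depended on scaling, with 47.2% of them higher on FPKM and 69.5% higher on TPM, which moved the median log2 difference of all genes from -0.03 to 0.16.

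Per3 rose most. Its FPKM was 3.44, 4.15 and 3.59 in HMD and 9.30, 9.62 and 9.73 in Bet+HMD. The log2 difference was 1.16 ± 0.08 (SE), the ratio of means was 2.56 and the adjusted p was 9.5e-05 (limma), and the log2 difference remained between 1.12 and 1.22 when each library was left out. Per3 lies within the span of Camta1 on the same strand but shares no exon bases with it, and Camta1 itself was not called in this comparison (log2 difference -0.11, limma adjusted p 0.290).

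Per2 rose as well, from 5.12, 5.52 and 6.19 FPKM in HMD to 8.01, 8.80 and 8.46 FPKM in Bet+HMD. This was a log2 difference of 0.51 ± 0.09 (SE, limma adjusted p 0.0026). Per1, whose promoter window holds the E-box printed above, rose from 13.6, 12.4 and 14.9 FPKM to 18.6, 18.7 and 19.2 FPKM. The log2 difference was 0.44 ± 0.08 (SE) and the adjusted p was 0.0040 (limma). All 3 Per genes thus rose, with log2 differences from 0.44 to 1.16. The ratio of Per3 to Per1 within a library was 0.241 to 0.335 in HMD and 0.499 to 0.515 in Bet+HMD, again with no overlap. It had been 0.189 to 0.234 in the Con libraries of the same table.

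Cry1, whose promoter window also holds an E-box, was the one member that fell. It had 6.53, 6.80 and 5.21 FPKM in HMD and 4.08, 3.84 and 3.61 FPKM in Bet+HMD, a log2 difference of -0.56 ± 0.11 (SE) and a ratio of means of 0.622 (limma adjusted p 0.0045). Cry2 was level, at 17.8 to 20.4 FPKM in HMD and 18.4 to 19.5 FPKM in Bet+HMD. Its log2 difference of -0.02 (95% interval -0.19 to 0.16) turned to 0.18 on TPM, 0.15 after quantile normalization and 0.01 after median centring. Cry2 shares 295 exon bases (4.67%) with D930015M05Rik on the opposite strand, and whether counting used the strand is not stated. D930015M05Rik rose from 0 to 15 reads per HMD library to 45 to 58 per Bet+HMD library (log2 difference 1.38). It passed the filter only through Bet+HMD, so its difference is given with no p.

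Arntl rose from 2.70, 2.80 and 2.95 FPKM to 4.09, 3.99 and 3.61 FPKM. The log2 difference was 0.36 ± 0.08 (SE, limma adjusted p 0.0106), and the call was lost when Bet+HMD replicate 1 was left out (adjusted p 0.0525). With Cry1 lower and Arntl higher, the ratio of Cry1 to Arntl came to 0.963 to 1.00 in Bet+HMD, under the 1.77 to 2.43 of HMD and the 1.09 to 1.17 of Con in this table. Clock was 10.6, 12.0 and 8.73 FPKM in HMD and 10.6, 10.1 and 10.5 FPKM in Bet+HMD. Its mean barely moved, with a log2 difference of 0.01 (95% interval -0.25 to 0.27).

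Nr1d1 rose from 28.4, 20.8 and 30.2 FPKM to 34.4, 35.4 and 36.6 FPKM, a log2 difference of 0.42 ± 0.13 (SE, limma adjusted p 0.0345). This call was the weakest of the 6. It was lost without the filter on low genes (adjusted p 0.0752), with all 3 groups in 1 fit (0.0530), and when Bet+HMD replicate 1 (0.0776), 2 (0.0906) or 3 (0.0990) was left out. Without HMD replicate 2, the lowest library, the log2 difference was 0.27 (adjusted p 0.0136). Nr1d1 shares 263 exon bases (8.55%) with Thra, a thyroid hormone receptor gene on the opposite strand, which fell (log2 difference -0.35, limma adjusted p 0.0048), a difference that turned to 0.03 after quantile normalization.

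Nr1d2 had 27.7, 29.2 and 27.1 FPKM in HMD and 26.9, 25.8 and 27.4 FPKM in Bet+HMD. The log2 difference was -0.07 (95% interval -0.22 to 0.09), and it turned to 0.13 on TPM and 0.15 after quantile normalization. For Dbp, HMD libraries spread from 7.78 to 15.9 FPKM while the Bet+HMD libraries stood between 11.2 and 11.6 FPKM. Its log2 difference was -0.01 (95% interval -0.51 to 0.49), with values of 0.18 on TPM, 0.07 after quantile normalization and 0.01 after median centring. Dbp shares 539 exon bases (18.0%) with Sphk2 on the opposite strand, and Sphk2 rose (log2 difference 0.28, limma adjusted p 0.0191), though not past the threshold after quantile normalization (adjusted p 0.0719).

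**Figure D3:**
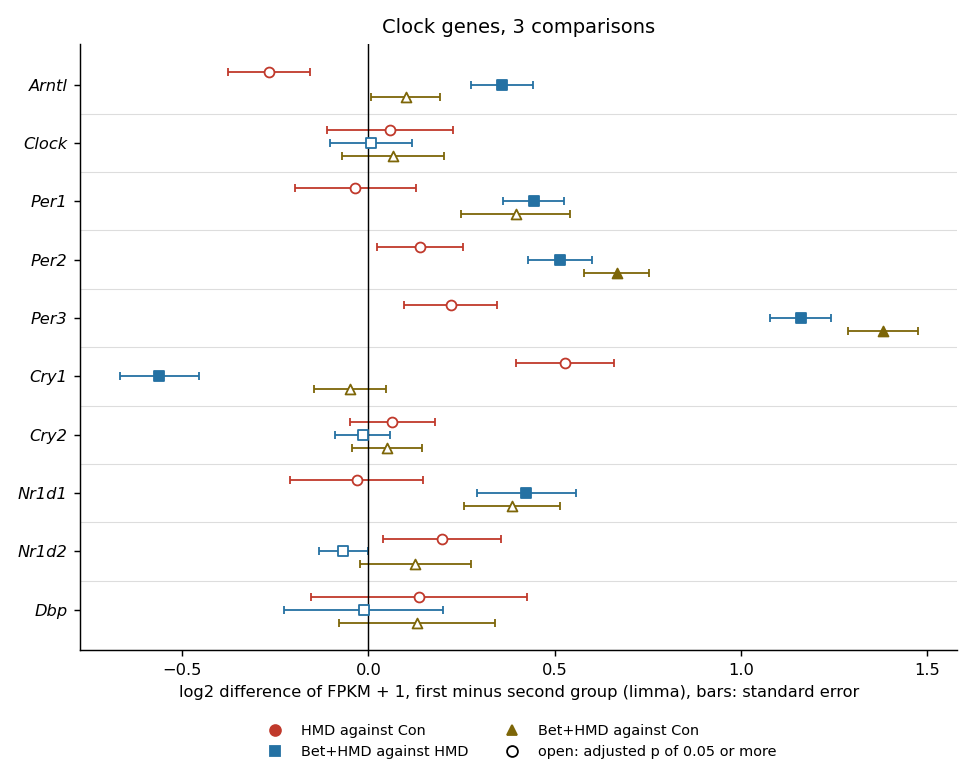
Log2 difference of FPKM + 1 for the 10 clock genes on the x axis in the 3 comparisons, with bars of 1 standard error from limma. Filled symbols passed an adjusted p under 0.05. Per3 lies farthest to the right for Bet+HMD against HMD (1.16) and against Con (1.38), while Cry1 and Arntl lie on opposite sides of 0 in the comparisons of HMD with Con and of Bet+HMD with HMD.

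Set against Con, Bet+HMD showed whether the members lay at the level of the standard diet. Here 2 of the 10 members passed the threshold (limma), both higher, against 39.7% of all 13643 genes called, 19.4% of them higher and 20.4% lower. The groups did not overlap for 4 members, Per1, Per2, Per3 and Nr1d1, against 55.1% of all genes. Both shares of the members were under those of genes at large on FPKM, but the order of the called shares depended on scaling: 5 of 10 members and 5412 of 13643 genes were called on TPM, and 4 of 10 members and 5296 genes after quantile normalization. This comparison shares its Bet+HMD libraries with the one before, and its Con libraries with the first, so the values are given side by side only. Of all calls, 48.8% were higher on FPKM and 73.5% on TPM, where the median of all genes moved from -0.04 to 0.17.

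Per3 was 3.34, 3.22 and 2.63 FPKM in Con in this table, so that the Bet+HMD mean was 3.12 times the Con mean (log2 difference 1.38 ± 0.09 SE, limma adjusted p 0.00024). Per2 was 4.95, 5.38 and 4.51 FPKM in Con, and its Bet+HMD mean was 1.70 times as high (log2 difference 0.67 ± 0.09 SE, limma adjusted p 0.0018). Per1 had 17.6, 13.8 and 11.5 FPKM in Con, all under the Bet+HMD libraries. Its log2 difference of 0.40 ± 0.15 (SE) did not pass (limma adjusted p 0.0696), though it did with limma voom (0.0429) and without Con replicate 1 (0.0136). Nr1d1, at 32.8, 25.0 and 23.8 FPKM in Con, was similar: the log2 difference of 0.39 ± 0.13 (SE) had a limma adjusted p of 0.0507, which was 0.0322 with limma voom and 0.0086 without Con replicate 1.

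Cry1 and Arntl, the members that had differed most between HMD and Con, had Bet+HMD values near those of Con. They were picked out on the same Con and HMD libraries that enter the comparisons with Bet+HMD, so this is a description and not a test. Cry1 was 3.58 to 4.46 FPKM in Con and 3.61 to 4.08 FPKM in Bet+HMD, with a log2 difference of -0.05 (95% interval -0.28 to 0.18) that turned to 0.15 on TPM. Arntl was 3.20 to 3.82 FPKM in Con and 3.61 to 4.09 FPKM in Bet+HMD, with a log2 difference of 0.10 (95% interval -0.12 to 0.32), and passed the threshold on TPM alone (log2 difference 0.33, limma adjusted p 0.0480). For Clock, Cry2, Nr1d2 and Dbp the log2 differences were 0.07 (95% interval -0.26 to 0.39), 0.05 (-0.17 to 0.27), 0.13 (-0.23 to 0.48) and 0.13 (-0.37 to 0.63). Dbp passed only without Con replicate 1, its highest Con library (log2 difference 0.38, limma adjusted p 0.0490). The intervals of Nr1d2 and Dbp still allow a difference of the size seen for Per1.

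The members differed in level by nearly an order of magnitude per length. In Con of the earlier table Nr1d1 (26.8 ± 4.88 FPKM, SD) and Nr1d2 (24.3 ± 5.37) were highest, followed by Cry2 (18.0 ± 1.83), Per1 (14.0 ± 3.09), Dbp (10.4 ± 3.62) and Clock (9.81 ± 2.05). The libraries of each gene in this run overlapped those of the next. Per2 (4.91 ± 0.461) overlapped neither Clock nor the next gene, and Cry1 (3.93 ± 0.413), Arntl (3.51 ± 0.306) and Per3 (3.01 ± 0.382) were lowest, each overlapping its neighbour. In HMD, Cry1 (6.12 ± 0.874) stood above Per2 (5.50 ± 0.525), although their libraries overlapped. Per3, the lowest member in Con, had moved up to 9.55 ± 0.220 FPKM in Bet+HMD, next under Clock, where Cry1 (3.85 ± 0.237) had become the lowest and overlapped Arntl (3.90 ± 0.254).

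The spread between replicates differed among the groups. The median coefficient of variation of the members was 15.5% in Con and 10.1% in HMD of the earlier table, near the 14.8% and 12.4% of all genes. In Bet+HMD it was 2.89% for the members and 6.91% for all genes. In the Con and HMD libraries of that later table it was 15.2% and 9.80% for the members. The p-values of the comparisons with Bet+HMD rest in part on this small spread, and its cause was not tested. Dbp varied most in both Con (34.6%) and HMD (34.6%). Con replicate 1 held the highest Dbp, Per1 and Nr1d1 of its group, and HMD replicate 2 held the lowest Dbp, Per1 and Nr1d1 of its group. Arntl had its lowest Con value in replicate 1. HMD replicates 1 and 2 were nearly equal for Arntl (2.67 and 2.66 FPKM), and replicate 1 was the lower in the later table (2.70 and 2.80 FPKM).

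Further genes of the clock were read from a list of 23, holding relatives of the members, their kinases, ubiquitin ligases and other partners. In HMD against Con, 0 of the 20 tested passed (limma, and 0 with limma voom), and 1 had an unadjusted p under 0.05 (background 4.56%). That gene was Rora, whose product activates Arntl through the ROR element, at 4.58, 6.18 and 3.83 FPKM in Con and 14.2, 7.62 and 7.34 FPKM in HMD (log2 difference 0.83 ± 0.26 SE, limma p 0.0126, adjusted 0.950). HMD replicate 1 stood far above the others. The next smallest p belonged to Bhlhe41, a repressor of E-box genes (log2 difference 0.25, p 0.144), and Usp2, a deubiquitinase of clock proteins (0.24, p 0.156). Arntl2 and Timeless were under the filter.

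Rora is also strongly expressed in the thalamus, which borders the hippocampus. The summed FPKM of 8 thalamic markers, all above 0 in every library, was 18.5 to 23.0 in Con and 95.8, 29.6 and 40.2 in HMD replicates 1, 2 and 3 of the earlier table. It was thus highest in the HMD library with the highest Rora, and in Bet+HMD it was 27.5 to 29.6. Its part in the Rora values was not tested. In bulk tissue, a change in the number of cells of a type and a change of RNA per cell cannot be told apart.

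In Bet+HMD against HMD, 8 of 21 further genes passed (limma), 2 higher and 6 lower, where 48.3% of all genes passed, 22.8% higher and 25.5% lower. Arntl2 (BMAL2), a paralogue of Arntl, rose from 0.607, 0.550 and 0.697 FPKM to 3.47, 3.57 and 3.44 FPKM (log2 difference 1.47 ± 0.10 SE). It had 48 to 67 reads per HMD library and 341 to 359 per Bet+HMD library. Every HMD library was under 1 FPKM, so Arntl2 passed the filter only through Bet+HMD, and its difference is given with no p. Npas2, a paralogue of Clock, rose too (log2 difference 0.52 ± 0.11 SE, limma adjusted p 0.0060). Rora was among those that fell (-0.72 ± 0.22 SE, limma adjusted p 0.0309). Fbxw11, a ligase of PER proteins, fell by 0.44 on the log2 scale (limma adjusted p 0.0095), and Nfil3, a repressor at D-boxes, fell by 0.35 (0.0239), although Nfil3 had an adjusted p of 0.0658 with limma voom. The number of calls was 5, 5 and 4 without Bet+HMD replicates 1, 2 and 3. Scaling moved the split of these calls: on TPM 10 genes passed, 9 higher and 1 lower, and after quantile normalization 9 passed, 5 higher and 4 lower. Arntl2, Npas2, Rora, Fbxw11 and Nfil3 kept their direction under both, but on TPM the adjusted p was 0.0735 for Rora, 0.0831 for Fbxw11 and 0.130 for Nfil3 (limma). After quantile normalization Fbxw11 stood at -0.18 (limma adjusted p 0.165).

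In Bet+HMD against Con, 7 of 20 further genes passed (limma), 3 higher and 4 lower, where 39.7% of all genes passed, 19.4% higher and 20.4% lower. The list was thus near or under the background in both comparisons. Arntl2 was again the largest, from 1.28, 0.650 and 0.729 FPKM in Con (log2 difference 1.27 ± 0.14 SE). Its Con mean was 0.887 FPKM, so here too it passed the filter only through Bet+HMD. Ciart, a repressor driven by E-boxes, rose from 4.23, 1.96 and 3.78 FPKM to 6.39, 5.68 and 6.48 FPKM (log2 difference 0.77 ± 0.21 SE, limma adjusted p 0.0258), and its promoter window held 3 E-boxes. Windows of Bhlhe41, Cipc and Tef also held an E-box, but these genes were not called (log2 differences 0.04, 0.07 and 0.02). Csnk1e, a kinase of PER proteins, rose by 0.40 (limma adjusted p 0.0375). Nfil3 (-0.59) and Csnk1d (-0.37), the latter another kinase of PER proteins, fell with limma adjusted p of 0.0145 and 0.0180. The number of calls fell to 1, 2 and 1 without Bet+HMD replicates 1, 2 and 3. On TPM 6 genes passed, 5 higher and 1 lower, and Csnk1d had an adjusted p of 0.253 (limma) with its direction kept.

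**Figure D4:**
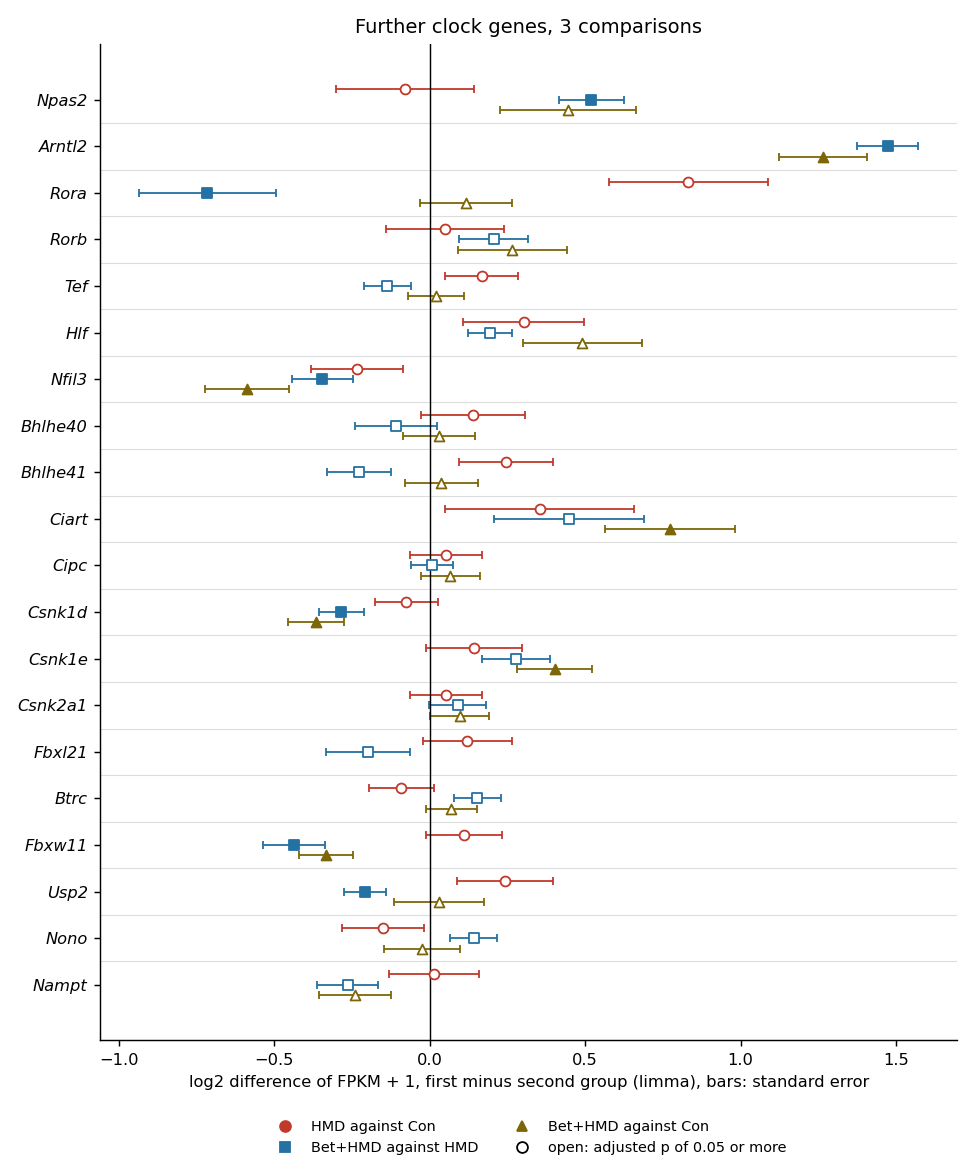
Log2 difference of FPKM + 1 for further clock genes that were tested, with bars of 1 standard error from limma and filled symbols for an adjusted p under 0.05. Arntl2, which passed the filter on low genes only through Bet+HMD, lies farthest to the right for Bet+HMD against HMD (1.47). Rora lies to the right in HMD against Con (0.83, open symbol) and to the left in Bet+HMD against HMD (-0.72).

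Per1 is known to be induced by glucocorticoids and by neuronal activity, so genes of both responses were read beside it. Both lists were chosen with earlier results of these data known, so their counts beside the background are a description and not a test. The summed FPKM of 10 glucocorticoid-induced genes was 178 to 192 in Con and 236 to 253 in HMD of the earlier table. All 10 had log2 differences above 0 and 7 did not overlap, where 9.37% of all genes did not, yet 0 passed the threshold (limma, 0 with limma voom, and 7 at an unadjusted p under 0.05, where 4.56% of all genes stood). Sgk1, a kinase, was 25.2, 29.3 and 24.0 FPKM in Con and 53.4, 46.7 and 47.4 FPKM in HMD (log2 difference 0.89 ± 0.12 SE, limma adjusted p 0.218), and Klf9, a transcription factor, had a log2 difference of 0.18 ± 0.11 (SE). Per1 stood at -0.04 in the same comparison.

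In Bet+HMD the same sum was 159 to 164, under the 242 to 256 of HMD and the 180 to 197 of Con in the later table. Here 8 of the 10 were lower than in HMD (limma, background 25.5%), among them Sgk1 (log2 difference -0.90 ± 0.07 SE, adjusted p 0.00015), while Per1, Per2 and Per3 were higher. Against Con, 1 was higher and 5 were lower (background 19.4% and 20.4%), or 2 and 3 on TPM. The log2 difference of Klf9 was -0.06 ± 0.08 (SE) against HMD, and turned to 0.13 on TPM and 0.29 after quantile normalization.

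The summed FPKM of 10 immediate early genes, which follow neuronal activity, was 135 to 219 in Con and 82.2 to 138 in HMD of the earlier table. All 10 had log2 differences below 0 and 6 did not overlap (background 9.37%), with 5 at an unadjusted p under 0.05 (background 4.56%) and 0 past the threshold (limma, and 0 with limma voom). Arc, a synaptic regulator, was 68.9, 46.1 and 39.3 FPKM in Con and 19.7, 21.3 and 38.5 FPKM in HMD (log2 difference -0.95 ± 0.29 SE, limma adjusted p 0.943), and Egr1, a transcription factor, had a log2 difference of -0.46 ± 0.30 (SE). In Bet+HMD the sum was 113 to 121, with 2 of 9 genes higher and 3 lower than in HMD (limma, background 22.8% and 25.5%), and 4 of 10 lower than in Con (background 20.4%). Against HMD, Arc and Egr1 had log2 differences of 0.29 ± 0.23 and 0.28 ± 0.19 (SE). Con replicate 1, which had the highest Per1 of its group, also had the highest sum of immediate early genes (219). In HMD, replicate 3 had both the highest Per1 and the highest sum, but the lowest Per1 was in replicate 2 and the lowest sum in replicate 1. In Bet+HMD, replicate 3 had the highest Per1 (19.2 FPKM) and the lowest sum (113), though Per1 ran only from 18.6 to 19.2 FPKM there. The part of neuronal activity or of glucocorticoids in the Per1 values was not tested.

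**Figure D5:**
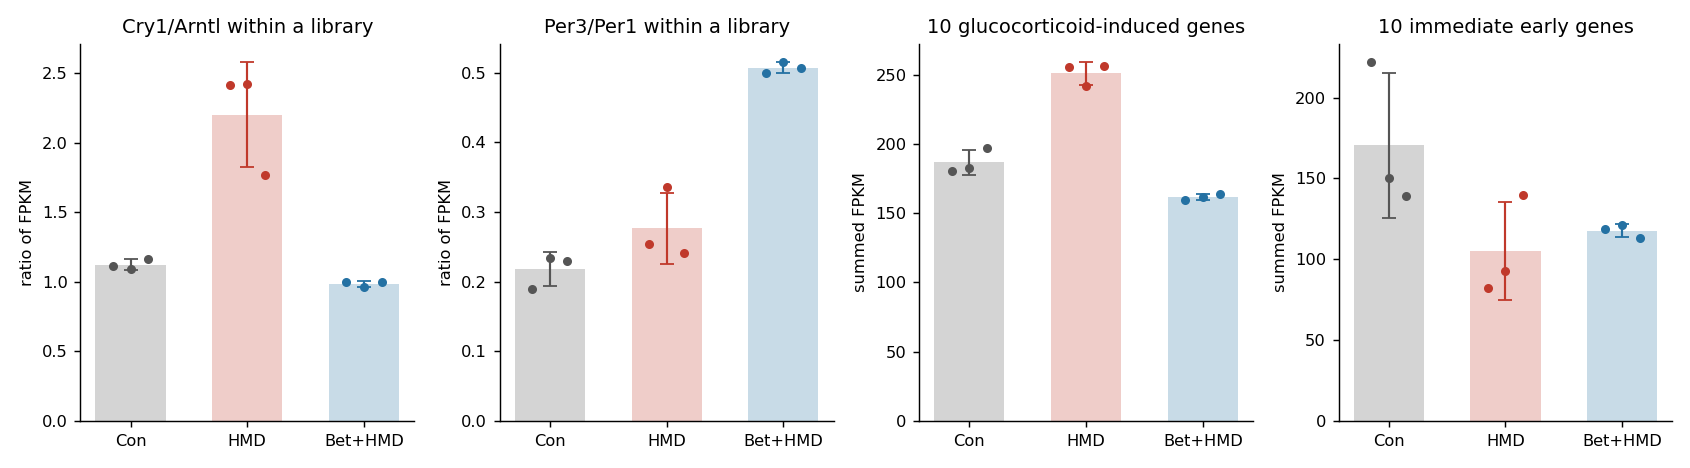
Within-library ratios of FPKM (left panels) and summed FPKM of the glucocorticoid-induced and immediate early genes (right panels) in the later table, with 1 point per library, bars at the mean and error bars of 1 SD (n = 3). Cry1 to Arntl is highest in HMD (1.77 to 2.43), Per3 to Per1 is highest in Bet+HMD (0.499 to 0.515), and the glucocorticoid-induced sum is highest in HMD (242 to 256).

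Markers of other tissue were read for each library of the later table. Hippocampal markers (8 of 8 above 0 in every library) summed to 220 to 238 FPKM in Con, 181 to 219 FPKM in HMD and 188 to 193 FPKM in Bet+HMD. Con and HMD were barely apart here, at 220 in Con replicate 3 and 219 in HMD replicate 3. In the earlier table these 2 libraries stood the other way, at 214 and 215. Of the 8 markers, 4 had log2 differences above 0 in HMD against Con and 4 below. In Bet+HMD against HMD, 3 were above 0 and 5 below, with 2 called lower (limma, background 25.5%). Against Con, 1 was called higher and 2 lower (background 19.4% and 20.4%). The sums thus hide shifts of single markers: mean Spink8 was 22.7, 17.6 and 7.10 FPKM in Con, HMD and Bet+HMD, and mean Zbtb20 was 9.33, 10.6 and 14.9 FPKM. The 6 markers of the suprachiasmatic nucleus, the master clock of the hypothalamus, summed to 5.02 to 12.1 FPKM, of which Vip, also made by hippocampal interneurons, gave 4.70 to 9.63 FPKM. Nms and Six6, defining markers of that nucleus, had 0 to 2 reads per library. The others of the 6 were also low but not all alike between groups. Lhx1 had 0 to 5 reads in Con, 16 to 25 in HMD and 3 to 15 in Bet+HMD. Avp had 4 to 21, 15 to 28 and 1 to 9 reads in the same order, and Prok2 had 1 to 7, 4 to 5 and 1 to 4. Markers of the striatum summed to 17.3 to 30.9 FPKM, of astrocytes to 378 to 541 FPKM, of red blood cells to 72.2 to 233 FPKM and of the choroid plexus to 770 to 3207 FPKM. Of the 5 astrocyte markers, 2 were called lower and 0 higher in Bet+HMD, both against HMD and against Con (limma, background lower 25.5% and 20.4%). Red blood cell markers were higher in HMD (149 to 233 FPKM) than in Con (99.8 to 148 FPKM) and Bet+HMD (72.2 to 122 FPKM), as Cry1 was. The same held for the thalamic markers, at 30.6 to 97.1 FPKM in HMD, 18.8 to 23.4 FPKM in Con and 27.5 to 29.6 FPKM in Bet+HMD. Within HMD the order differed: replicate 2 had the highest Cry1 (6.80 FPKM) but the lowest red cell (149) and thalamic (30.6) sums. Replicate 3 had the lowest Cry1 (5.21 FPKM) and the highest red cell sum (233). The part of any of these marker sets in the values of Cry1 and the other members was not tested.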

How the data were processed

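RNA of the hippocampus was sequenced in 9 mice, 3 per group, and the authors deposited FPKM per gene in 2 tables, made per the submitters' processing notes with HISAT2 2.1.0 and featureCounts 1.5.0-p3 on mm10. Gene lengths, in bases, were deposited beside them. The study's methods describe stranded libraries depleted of ribosomal RNA, and whether counting used the strand is not stated. Titles gave the groups. Columns prefixed COL were read as Con, which is inferred, and 0 columns stayed unmatched.

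FPKM times length gave whole reads (tolerance 0.01) for 100% of values, so depth was known. Reads carried no molecular identifiers. The tables were scaled separately, and each test was kept within 1 table. With limma 3.58.1 in R 4.3.3, log2(FPKM + 1) of the 2 groups was fitted gene by gene, moderated by empirical Bayes with a trend on intensity, for genes with a mean of at least 1 FPKM. Two-sided p were adjusted by Benjamini-Hochberg over all genes tested, with a threshold of 0.05. Intervals are 95% intervals of limma. On data simulated with the same spread in all libraries, the fit recovered changed genes but made somewhat more false calls than nominal, while limma voom did not. The real Bet+HMD libraries varied less than the others, so these rates may not hold for comparisons with Bet+HMD. Tables and plots were made with Python 3.11.15, pandas 2.3.3 and matplotlib 3.10.9.

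The members and all gene lists (further clock genes, glucocorticoid-induced genes, immediate early genes and tissue markers) were chosen with earlier results of these data known. Named were all members, the further genes called with the 6 largest differences (or, with 0 called, the 3 smallest p), further genes with an E-box, genes overlapping a member, the 2 most abundant genes of each response list, and the 3 genes of most like pattern. Some genes of the further list enter its counts but are not reported here by name. The Cry1 to Arntl and Per3 to Per1 ratios were chosen after the values were seen. Alternatives were a pseudocount of 0.1, no filter, a filter at 5 FPKM, TPM, quantile normalization, median centring, no trend, limma voom on recovered reads, all 3 groups in 1 fit, a replicate block, HMD against Con refitted on the later table, and each library left out once.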

Additional observations from a re-analysis of the deposited data

How the results depend on the processing

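Of the 4 members not called between Bet+HMD and HMD, 3 changed sign with scaling: Cry2 (0.18 on TPM, 0.15 after quantile normalization, 0.00654 after median centring), Nr1d2 (0.13 and 0.15 on the first pair) and Dbp (0.18, 0.0707 and 0.00898). Against Con, Cry1 turned to 0.15 on TPM. Leaving out each library in turn, with 2 samples left in a group, gave log2 differences on both sides of 0 in HMD against Con for Clock (-0.0703 to 0.20), Per1 (-0.18 to 0.12), Nr1d1 (-0.13 to 0.12) and Dbp (-0.0867 to 0.39). The same held in Bet+HMD against HMD for Clock (-0.10 to 0.10), Cry2 (-0.0653 to 0.0291) and Dbp (-0.26 to 0.21), and in Bet+HMD against Con for Clock (-0.0570 to 0.21), Cry1 (-0.11 to 0.0139), Cry2 (-0.0125 to 0.12), Nr1d2 (-0.0111 to 0.28) and Dbp (-0.0628 to 0.38). Members called against Con numbered 5 on TPM, 4 after quantile normalization, 4 with limma voom, and 2 to 5 without single libraries. Further clock genes called against HMD numbered 5 with all 3 groups in 1 fit and 4 to 10 without single libraries. Those called against Con numbered 4 with no filter, 4 with a filter at 5 FPKM, where fewer genes were tested, and 1 to 7 without single libraries. With the replicate block 5 further genes were called against HMD and 3 against Con, while the members' calls stayed at 0, 6 and 2. Correlations of same-numbered samples were -0.18 to 0.02 in the comparisons with Bet+HMD, where the numbers did not pair the samples. Between HMD and Con they were -0.06, 0.35 and 0.32 (4 of 6 samples best with their own number). These values cannot decide whether the numbers pair the HMD and Con samples. The causes of the changes between settings were not tested. All calls of Per1, Per2, Per3 and Cry1 in Bet+HMD against HMD held under the 10 alternatives and 6 omissions run for each. Arntl, in HMD against Con and in both other comparisons, had no value with the filter at 5 FPKM, and neither had Per3 in HMD against Con or Cry1 in Bet+HMD against Con.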

Other observations

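Over the 6 Con and HMD libraries of the earlier table, 12988 genes were ranked by Pearson r of log2(FPKM + 1) with each of 4 members, as a description of these libraries, which share depth and dissection. The genes most like Per1 were Usp11 (r = 0.979), Stk3 (0.979) and Shank1 (0.976). Dbp was most like Gm13192, a processed pseudogene (0.992), Gstm1 (0.991) and Plppr3 (0.988). For Nr1d1 the genes were Bean1 (0.993), Med27 (0.990) and Pth1r (0.987), and for Arntl they were 2210016F16Rik (0.986), Wnt9a (0.983) and Nfya (0.978).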
